A study of Mus musculus and Rattus norvegicus with 2 samples.

Results

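The miR-34 and miR-449 genes form a miRNA family, and 5 of its mature arms carried all but 1 of its reads in mouse and rat sperm. These were both arms of miR-34c, both arms of miR-34b, and miR-449a-5p. Reads were taken where the deposited annotation named miR-34a, miR-34b, miR-34c or miR-449, on any arm. Reads under any other annotation were added where their first 18 nt were those of the most abundant sequence of a name. This gave 464 reads of 54 distinct sequences in the mouse library and 7202 reads of 135 distinct sequences in the rat library. Of 299 mature miRNA names with reads in either library, 6 belonged to the family, namely these 5 arms and miR-34a-5p, which had 1 rat read.

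The study profiled small RNAs of 18 to 45 nt in sperm from the cauda epididymis, the last segment of the duct where sperm are stored. Mouse sperm was from the strain C57BL/6 at 2 months of age, and rat sperm from Sprague Dawley young adults weighing 450 g, with no treatment named for either. There was 1 library per species, so no difference between the species could be tested, and every interval below is a 95% interval for counting error only, exact Clopper-Pearson for shares and ratios and exact Poisson for counts. The number of animals behind a library was not stated in the sources. Reads without molecular identifiers are also not independent molecules.

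A miRNA is cut from an arm of a hairpin precursor, as the 5p or the 3p product, and it finds its targets mainly through its seed, the bases 2 to 8. miR-34b and miR-34c come from a shared transcript and are abundant in testis, where they appear as male germ cells pass through meiosis. miR-449a comes from another cluster, lies in the gene of a cell cycle protein, and is abundant in testis and in multiciliated epithelia, where it shares targets with miR-34b and miR-34c through their common seed.

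The mature sequences are shown with the seed in capitals, because the seed divides the arms into sets that other bases then separate. For miR-34c-5p the most abundant deposited read is given, and the others are mouse sequences from RefSeq, GRCm38.p6.
miR-34b-5p: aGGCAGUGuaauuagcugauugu
miR-34c-5p: aGGCAGTGtagttagctgattgc
miR-449a-5p: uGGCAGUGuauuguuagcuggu
miR-34b-3p: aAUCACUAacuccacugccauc
miR-34c-3p: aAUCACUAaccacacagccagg
These 5p arms carry the same 7 seed bases, as do miR-34a-5p and miR-449c-5p, while the 3p arms of miR-34b and miR-34c share another seed. Counted from 1 at the 5′ end of miR-34c-5p, the 5p arms of miR-34c and miR-34b differ only by G11A and C23T, neither in the seed. The 3p arms differ by C11T, A12C, A16T, G21T and G22C, counted from 1 at the 5′ end of miR-34c-3p.

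The hairpins are shown because the bases around each arm decide which read ends count as part of the precursor and which as additions. They are the mouse hairpins of RefSeq, with the arms that gave reads in capitals.
Mir34b: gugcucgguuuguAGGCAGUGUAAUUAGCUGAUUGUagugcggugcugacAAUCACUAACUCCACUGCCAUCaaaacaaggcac
Mir34c: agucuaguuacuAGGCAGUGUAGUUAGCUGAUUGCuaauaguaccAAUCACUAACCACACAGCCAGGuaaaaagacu
Mir449a: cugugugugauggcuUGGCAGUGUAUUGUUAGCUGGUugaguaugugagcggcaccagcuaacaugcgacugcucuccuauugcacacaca
In the mouse genome (GRCm38, GENCODE M21), Mir34b lies at chr9:51103562-51103645 and Mir34c at chr9:51103034-51103110, both on the minus strand, with 451 bp between them. Both lie in an intron of Btg4, which is on the opposite strand. Mir449a lies at chr13:113037534-113037624 on the plus strand, in an intron of Cdc20b on the same strand. Mir449b and Mir449c lie in introns of the same gene, and Mir34a at chr4:150068454-150068555 lies in no other annotated gene. Rat reads were placed on these mouse hairpins too, so a base where the rat precursor differs would count as a substitution or an addition.

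The family took a much larger share of the miRNA reads in the rat library. Its reads under any annotation equalled 27.8% of the number of rat mature miRNA reads (interval 27.2 to 28.3%) and 1.97% of that of the mouse (1.80 to 2.16%). They include 79 mouse and 378 rat reads filed under precursors, and 43 rat reads under a piRNA entry. The mature miRNA totals leave such reads out, so these percentages and those by arm below exceed the shares by name. Their intervals treat them as shares. By name alone the family had 385 mouse and 6781 rat reads. Of all listed reads, which include fragments of tRNA, rRNA and other RNAs, it made up 0.343% in the rat and 0.0671% in the mouse. The rat library held 25951 mature miRNA reads among 2102735 listed reads, and the mouse library 23507 among 691381. The share of miRNA reads therefore differed between the libraries as a whole, and scaling to listed reads in place of miRNA reads moved every log2 ratio of mouse over rat up by 1.46 before the pseudocount. Both scalings are given below where they part.

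miR-34c-5p carried most of the family's reads. It had 307 reads in the mouse library and 5955 in the rat library, of which 255 and 5785 were annotated as mature. The full counts equal 1.31% (1.16 to 1.46%) and 22.9% (22.4 to 23.5%) of the number of mature miRNA reads. Ranked by starts of 18 nt, miR-34c-5p was the most abundant miRNA of the rat library and stood 12th in that of the mouse. By deposited name, rat miR-10a-5p had more reads, 6646 against 5785. The top sequence under that rat name has the start called miR-10b-5p in the mouse, which had 3478 rat reads. Per mature miRNA read miR-34c-5p was 17.6-fold higher in the rat (interval 15.7 to 19.8), a log2 ratio of mouse over rat of -4.13 with 1 read per 1000000 added to both. Per listed read it was 6.38-fold higher. In the rat 5424 of its reads (91.1%) were the single 23-nt sequence printed above, and in the mouse 228 (74.3%).

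miR-34b-3p, the second most abundant arm in both species, had 85 reads in the mouse library and 757 in the rat library. Of these, 68 and 563 were annotated as mature. The full counts equal 0.362% (0.289 to 0.447%) and 2.92% (2.72 to 3.13%) of the number of mature miRNA reads, with ranks of 25 and 9. miR-34b-3p was 8.07-fold higher in the rat per mature miRNA read (6.44 to 10.2) and 2.93-fold higher per listed read. miR-449a-5p came next, with 37 mouse reads and 235 rat reads, of which 36 and 205 were annotated as mature. On the same measure its full counts equal 0.157% (0.111 to 0.217%) and 0.906% (0.794 to 1.03%). miR-449a-5p was 5.75-fold higher in the rat (4.06 to 8.37), and 2.09-fold higher per listed read.

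The less used arm of each miR-34 hairpin behaved differently. miR-34b-5p had 7 reads in the mouse library and 192 in the rat library, 24.8-fold higher per mature miRNA read in the rat with a wide interval of 11.8 to 62.6, and 9.02-fold higher per listed read. Its log2 ratio of mouse over rat was -4.63, and -3.58 with reads placed on the hairpin, where it had 17 mouse and 225 rat reads. miR-34c-3p had 28 mouse reads and 62 rat reads, 2.01-fold higher in the rat per mature miRNA read (1.26 to 3.26). Per listed read its direction turned, with a log2 ratio of mouse over rat of 0.44 and an interval of -0.24 to 1.12 that includes 0. miR-34c-3p was the member whose direction depended on the scaling.

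All 5 members were at least 2-fold higher in the rat per mature miRNA read, against 40.0% of the 100 miRNA starts with at least 10 reads in either library. Per listed read 4 of the 5 members passed this fold, against 19.0% of those starts. None was at least 2-fold higher in the mouse, against 24.0% per mature miRNA read and 53.0% per listed read. The members were looked at with the level of miR-34c-5p in these libraries already known, so these shares describe them and test nothing. In such bulk libraries, fewer cells of a type and less RNA per cell cannot be told apart.

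**Figure D1:**
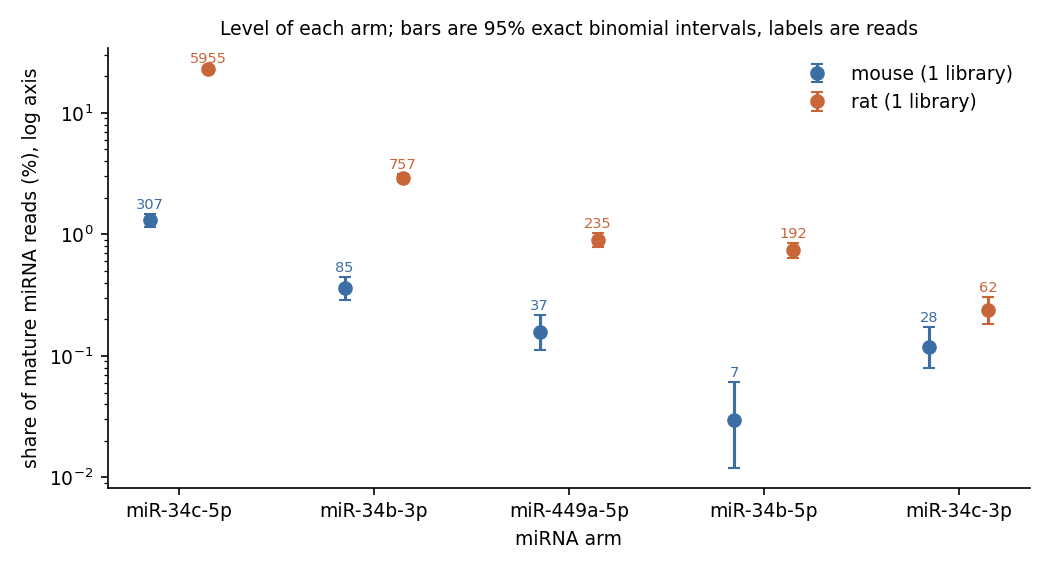
Reads of each arm under any annotation, as a percentage of the number of mature miRNA reads (log axis) in the mouse and the rat library. Bars are exact binomial 95% intervals, and the read number stands above each point. The rat point lies above the mouse point for all 5 arms on this scale, with the widest separation for miR-34b-5p (7 against 192 reads) and the narrowest for miR-34c-3p (28 against 62).

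The order of the arms was alike in both species at the top and not at the bottom. miR-34c-5p had 3.61 times (mouse) and 7.87 times (rat) the reads of miR-34b-3p, which had 2.30 and 3.22 times those of miR-449a-5p, with intervals that did not overlap. In the mouse miR-34c-3p followed, and its interval overlapped that of miR-449a-5p. miR-34b-5p was lowest there, with 7 reads against 28. In the rat the last 2 places were exchanged: the interval of miR-34b-5p overlapped that of miR-449a-5p, and miR-34c-3p was lowest.

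The remaining arms of the family were at or near 0. miR-34a-5p had 0 mouse reads and 1 rat read. Counted by deposited name, miR-34a-3p, miR-449a-3p, miR-449b and both arms of miR-449c had 0 in both libraries. As a one-sided limit, a count of 0 allows up to 3 reads, or 127.6 (mouse) and 115.6 (rat) per 1000000 mature miRNA reads, and the two-sided exact Poisson interval reaches 3.69 reads. At that depth miR-449a-5p stood at 1574 and 9056 on the same scale while its own 3p arm and its cluster neighbours had 0 reads.

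By the distance between log2 ratios of mouse over rat, the miRNAs nearest to miR-34c-5p among 38 with at least 100 reads in both libraries together were miR-6937-5p, miR-34b-5p, miR-1957b, miR-6240 and miR-29a-3p. miR-6937-5p had 8 mouse and 206 rat reads (log2 ratio -4.54) and miR-1957b had 16 and 215 (-3.60). miR-6240 had 85 and 849 (-3.18), and miR-29a-3p had 6 and 244 (-5.20). These are pairs of libraries, 1 value a species, and the rat reads with the starts of miR-6937-5p, miR-1957b and miR-6240 were filed under other entries. miR-34b-5p, the closest relative in sequence, was also the second nearest in ratio.

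The purity of the sperm was not measured here, and the levels of miRNAs known from other cells are given beside the family. Of 11 miRNAs of testicular germ cells outside the family, 5 had at least 10 reads in either library. Under the names listed, 3 (miR-883a-3p, miR-463-3p and miR-202-5p) had 0 in both. Reads under the rat name miR-883-3p, 5 in the rat library, were not matched to miR-883a-3p and are not in the sums of the 11. Together the 11 had 113 mouse and 133 rat reads, 4807 and 5125 per 1000000 mature miRNA reads. Of the 5 measured, the mouse had at least 2-fold more of 2 and the rat of 3. The 6 markers of epididymal epithelium summed to 26120 for the mouse and 12485 for the rat on this scale, the 4 of stroma and muscle to 127026 and 32754, and the 6 of blood cells to 4084 and 578.0. miR-143-3p, a smooth muscle miRNA, gave 2961 of the 2986 stromal reads of the mouse library and 820 of 850 of the rat library. The stromal miR-199a-3p gave 8 mouse and 15 rat reads, and miR-145a-5p gave 13 and 15. The epithelial sum rests on miR-141-3p (213 mouse and 101 rat reads) and miR-375-3p (383 and 189), and miR-200a-3p went the other way, with 5 and 24. The blood marker miR-223-3p was at 0 in both libraries, and miR-486-5p had 79 mouse reads and 0 rat reads. The part of these markers in the lower family share of the mouse library was not tested.

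The paired hairpins used opposite arms, in both species. miR-34b gave mostly its 3p arm, at 92.4% for the mouse (84.9 to 96.9%) and 79.8% for the rat (77.1 to 82.3%). miR-34c gave mostly its 5p arm, and its 3p arm was at 8.36% for the mouse (5.63 to 11.9%) and 1.03% for the rat (0.791 to 1.32%). As ratios, the mouse had 11.0 reads of miR-34c-5p for each of miR-34c-3p and the rat 96.0, while for miR-34b there were 12.1 and 3.94 reads of the 3p arm for each of the 5p arm.

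In the rat the share of the 5p arm was higher for both hairpins, which made the arm bias stronger for miR-34c and weaker for miR-34b. For miR-34c the intervals of the species did not overlap. For miR-34b they did not overlap either, but the mouse value rests on 7 reads of the 5p arm. When reads with other starts were counted by placing every read on the hairpin, the mouse share of the miR-34b 3p arm fell to 83.8% (75.3 to 90.3%), which overlaps the rat share of 77.7% (75.0 to 80.2%). That alternative left miR-34c at 8.36% and 1.04%.

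**Figure D2:**
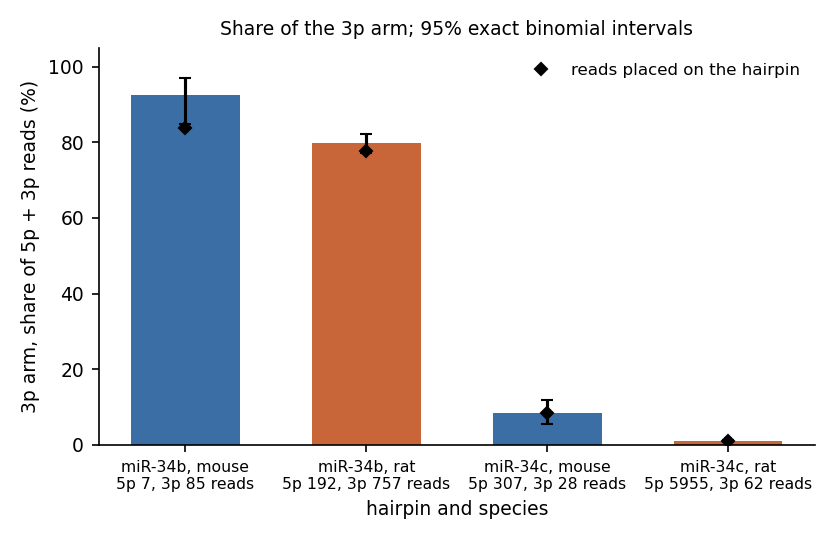
Share of the 3p arm among 5p and 3p reads (percent) of miR-34b and miR-34c in each library, with exact binomial 95% intervals and the share after hairpin placement as diamonds. miR-34b stands at 92.4% and 79.8% and miR-34c at 8.36% and 1.03%, and the diamond of mouse miR-34b lies at 83.8%, below its bar.

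Comparing the hairpins arm by arm gave the same reversal. Among 5p arms, miR-34c-5p had 43.9 times (mouse) and 31.0 times (rat) the reads of miR-34b-5p. With reads placed on the hairpin, which counts earlier starts, these became 18.7 and 26.6 times, so which species had the higher ratio depended on the assignment. Among 3p arms, miR-34c-3p had 0.329 times (mouse) and 0.0819 times (rat) the reads of miR-34b-3p.

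The 5p arms of miR-34b and miR-34c are so alike that misread bases could move reads between them. Reads of miR-34c-5p with A at its other 6 G positions within the first 18 bases numbered 0 to 8 at each in the rat, 21 in all. The miR-34b start, which G11A defines, was carried by 183 of the 192 rat reads of miR-34b-5p. Of these 183, 177 also ended in the last base of miR-34b-5p and 2 in that of miR-34c-5p. In the mouse all 7 reads with the miR-34b start ended as miR-34b-5p does.

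For miR-34c-5p and miR-449a-5p the intervals of the main lengths did not overlap between the species. miR-34c-5p was 23 nt long in 78.5% of its mouse reads (73.5 to 83.0%) and 95.2% of its rat reads (94.7 to 95.8%). The 24-nt form made up 16% in the mouse (12.0 to 20.5%, 49 reads) and 2.85% in the rat (2.45 to 3.31%, 170 reads). The main 24-nt read had 46 mouse and 121 rat copies, and it is shown with its seed in capitals because its last base is the next base of the hairpin, a U.
miR-34c-5p, 24 nt: aGGCAGTGtagttagctgattgct
A last U that the hairpin also holds could be cut from the precursor or added afterwards, and the reads do not tell these apart.

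This lengthening in the mouse was not general. Among 18 miRNA starts with at least 100 reads in each library, the share of reads longer than the most frequent length was higher in the mouse for 7, and the median difference of mouse minus rat was -1.03 percentage points. miR-34c-5p had 17.4% longer reads (mouse) against 2.93% (rat), a difference of 14.5 points, the highest of the 18. The most frequent length was the same in both species for 14 of the 18, among which miR-34c-5p was again highest and miR-191-5p next with 13.4 points. For miR-143-3p, which also differed by 14.5 points, it was 20 nt (mouse) and 21 nt (rat).

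miR-449a-5p had 2 frequent lengths, and the species differed in which was the more frequent.
miR-449a-5p, 22 nt: tGGCAGTGtattgttagctggt
miR-449a-5p, 20 nt: tGGCAGTGtattgttagctg
In the mouse 62.2% of 37 reads were 22 nt (44.8 to 77.5%) and 18.9% were 20 nt (7.96 to 35.2%). In the rat 35.7% of 235 reads were 22 nt (29.6 to 42.2%) and 43.4% were 20 nt (37.0 to 50.0%). The 20-nt form thus ends 2 nt before the RefSeq mature sequence and was the most frequent form in the rat, with 100 reads of the sequence printed. The intervals did not overlap between species for either length, although the mouse value rests on 37 reads.

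miR-34b-3p was 22 nt in 72.9% of its mouse reads and 62.0% of its rat reads, and 23 nt in 18.8% (11.2 to 28.8%) and 25.4% (22.3 to 28.6%), with overlapping intervals. miR-34c-3p was 22 nt in 67.9% of 28 mouse reads and 46.8% of 62 rat reads, and 23 nt in 14.3% (4.03 to 32.7%) and 40.3% (28.1 to 53.6%). The intervals of the species overlapped at both lengths for both 3p arms, which does not show that their shares are the same. With blank counts read back, 21-nt reads of mouse miR-34b-3p went from 4 (4.71%) to 13 (12.9%), against 8.45% in the rat.

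**Figure D3:**
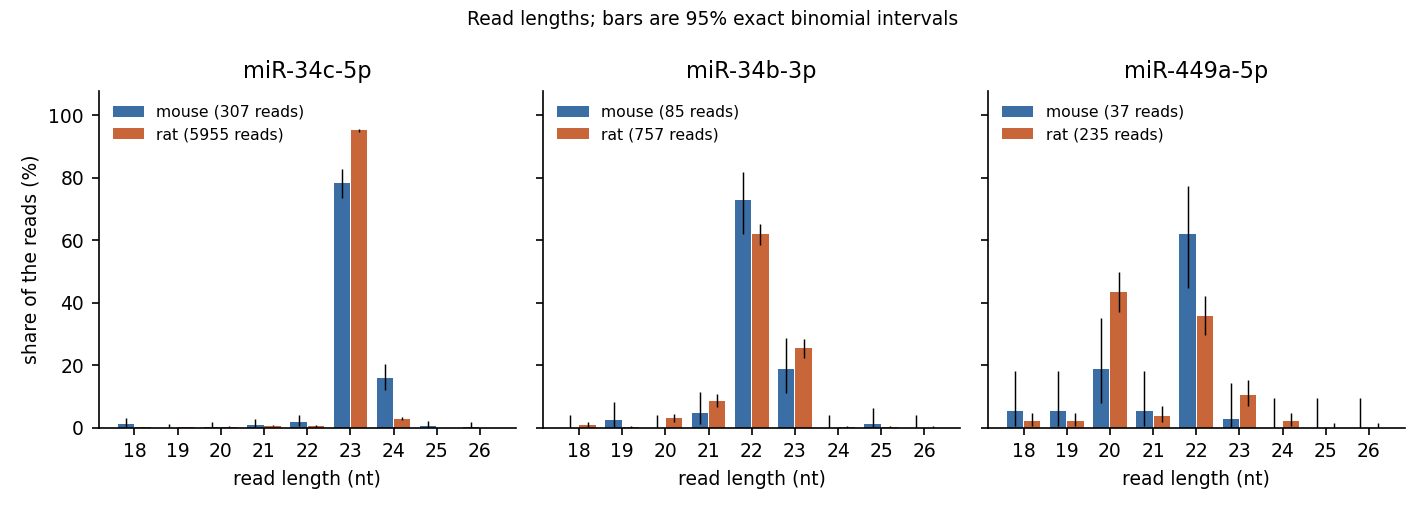
Read lengths of miR-34c-5p (left), miR-34b-3p (middle) and miR-449a-5p (right) in each library, as a percentage of the reads of that arm with exact binomial 95% intervals. The 24-nt bar of miR-34c-5p is higher in the mouse (16% against 2.85%), and miR-449a-5p peaks at 22 nt in the mouse and at 20 nt in the rat.

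The 5′ end sets the seed, so reads that begin elsewhere carry another seed. To find them, all listed reads were placed on the mouse hairpins with at most 1 substitution and up to 3 added bases at the 3′ end. Of the reads so placed, miR-34c-5p began at its usual base in 306 of 318 mouse and 5957 of 5996 rat reads. miR-34b-5p was the exception among the members. It began 1 nt earlier in 10 of 17 mouse reads (58.8%, 32.9 to 81.6%) and in 33 of 225 rat reads (14.7%, with a lower bound of 10.3%), and all of these began with the U that the hairpin holds there. The most frequent had 7 mouse and 16 rat copies and is shown with its shifted seed in capitals.
miR-34b-5p, 1 nt earlier: tAGGCAGTgtaattagctgattgt
These earlier starts were not among reads annotated as mature miRNA. The 10 mouse reads were filed under the precursor and the 33 rat reads under a piRNA entry.

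miR-34b-3p began 1 nt later in 6 of 88 mouse reads (6.82%, 2.54 to 14.3%) and in 41 of 784 rat reads (5.23%, 3.78 to 7.03%). Its most frequent later start had 3 copies in the mouse and 17 in the rat.
miR-34b-3p, 1 nt later: aTCACTAActccactgccatc
The share was alike in both species within counting error, and the seed of these reads is moved by 1 base. miR-34c-5p began 1 nt earlier in 10 mouse and 38 rat reads. In 33 of those 38 rat reads the extra first base was not the U of the mouse hairpin, and 30 were copies of a single sequence that begins with C. With blank mouse counts read back from their dates, the mouse number rose to 19 of 334 reads (5.69%), 10 of them with a base other than that U. miR-34c-3p and miR-449a-5p each had 1 read with a shifted start in each library.

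Bases at the 3′ end that the hairpin does not hold were most frequent on the 3p arms. miR-34b-3p carried them in 20 of 88 mouse reads (22.7%) and 193 of 784 rat reads (24.6%), and nearly all were U. Additions of U alone were found on 19 mouse reads (21.6%, lower bound 13.5%) and 189 rat reads (24.1%, lower bound 21.2%). The forms that carried them are shown with the added base in capitals, first at the usual 3′ end and then after the loss of the last base.
miR-34b-3p, U added: aatcactaactccactgccatcT
miR-34b-3p, U in place of the last base: aatcactaactccactgccatT
The first had 13 mouse and 138 rat copies and the second 4 and 35. The next base of the hairpin is A, so an added A would be read as precursor sequence, and the 46 rat reads that end in that A are not counted among the additions.

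miR-34c-3p, with the fewest reads in the rat, had additions in 10 of 29 mouse reads (34.5%) and 18 of 63 rat reads (28.6%). Of these, 5 and 14 were of U alone. The most frequent had 3 mouse and 13 rat copies.
miR-34c-3p, U in place of the last base: aatcactaaccacacagccagT
Here the next base of the hairpin is U, and the 23 rat copies of the 23-nt read that ends in it are not counted among the additions.

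The 5p arms had fewer additions. miR-34c-5p carried them in 14 of 318 mouse reads (4.40%) and 144 of 5996 rat reads (2.40%), in the rat mostly A (86 reads) and then U (43 reads). Its A form in place of the last base had 45 rat copies and 3 mouse copies.
miR-34c-5p, A in place of the last base: aggcagtgtagttagctgattgA
The U form had 42 rat copies, and its last base is also that of miR-34b-5p. miR-449a-5p had 0 additions among 38 mouse reads (0 to 9.25%) and 30 among 236 rat reads (12.7%, 8.74 to 17.6%), of which 25 were A. These intervals overlap. Its main form had 15 rat copies.
miR-449a-5p, A added: tggcagtgtattgttagctggtA
The next hairpin base is U for miR-34c-5p and miR-449a-5p, so an added U at their usual end could not be seen.

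Against 10 other miRNAs, the U additions of miR-34b-3p were high. Counted over reads with the usual start, they made up 21.8% of mouse and 24.2% of rat reads. Among these 10 single-copy miRNAs outside the family, each with at least 100 reads in each library, the median for U additions was 0.481% (mouse) and 0.496% (rat). The highest values, those of miR-127-3p, were 10.4% and 4.14%. Not every miRNA with that many reads was among the 10: miR-143-3p, miR-375-3p, miR-99b-5p and miR-30d-5p were not compared. For 4 of these 10 (miR-10a-5p, miR-10b-5p, miR-191-5p and miR-22-3p) the next hairpin base is U, which hides an added U. miR-34c-3p had 17.9% and 21.3% on this measure. The A additions of rat miR-449a-5p, at 10.8%, also lay above the range of those 10 miRNAs in the rat, 0 to 6.51%. miR-34c-5p lay within it at 1.48%.

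**Figure D4:**
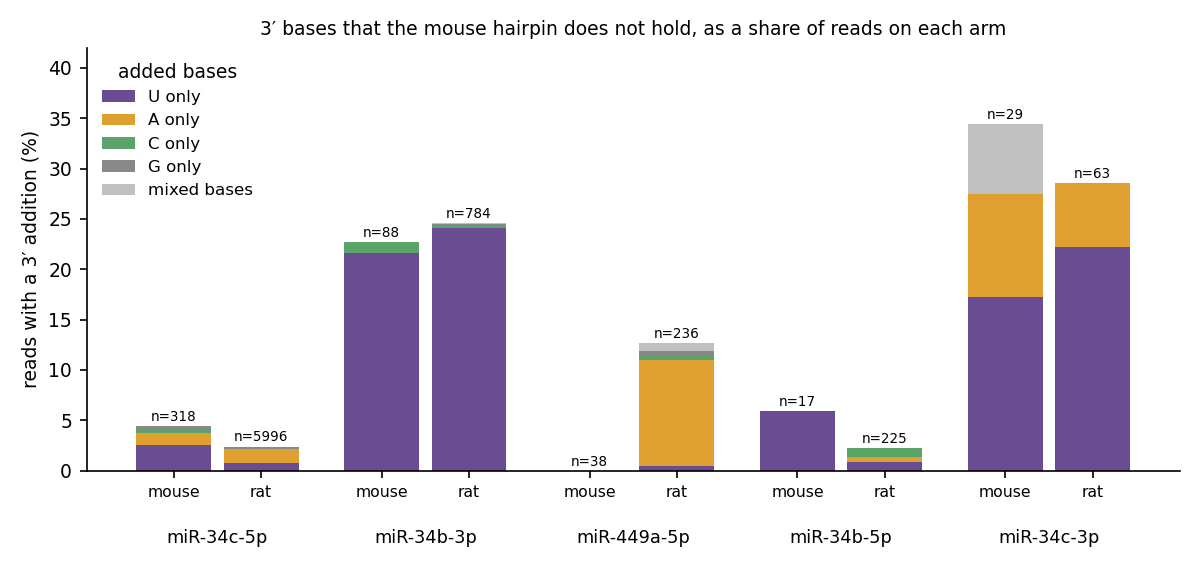
Reads whose 3′ end carries bases that the mouse hairpin does not hold, as a percentage of the reads placed on each arm, divided by the added base; n is the number of reads on the arm. U makes up nearly all additions of miR-34b-3p in both species (21.6% and 24.1%), and A most of those of rat miR-449a-5p (25 of 30 reads).

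Substitutions of miR-34c-5p within the first 18 bases lay in the middle of those of the abundant miRNA names, the family included. Among reads annotated as mature miR-34c-5p, 7 of 255 mouse reads (2.75%, 1.11 to 5.57%) and 153 of 5785 rat reads (2.64%, 2.25 to 3.09%) carried one. Over the names with at least 100 reads the median was 2.75% over 19 mouse names and 2.68% over 23 rat names, and miR-34c-5p took place 10 from the lowest in both. The most frequent in the rat were G15C with 20 reads, G15T with 13 and T7C with 11, counted from 1 at the 5′ end of miR-34c-5p. For rat miR-34b-3p the share was 2.66%, for rat miR-34b-5p 4.74% (2.19 to 8.80%) and for rat miR-449a-5p 1.46% (0.303 to 4.22%). No substitution of miR-34c-5p exceeded 0.346% of its rat reads.

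How the reads were annotated bears on any count taken by name alone. Reads annotated as mature family miRNAs were never longer than 23 nt, and longer reads with the same start were filed elsewhere. In the mouse 79 of 464 family reads (17.0%, 13.7 to 20.8%) were filed under precursors. In the rat 378 of 7202 (5.25%) were under precursors and 43 (0.597%) under a piRNA entry. By arm the precursor entries held 17 of 85 mouse and 194 of 757 rat miR-34b-3p reads, which include the 23-nt form with an added U. For miR-34c-5p the precursor share was 16.9% for the mouse against 2.17% for the rat, following its 24-nt form. On the placed reads, 84 rat reads of the family lay under a single piRNA entry that held 85 reads in all. A count of miRNA names alone gave 385 mouse and 6781 rat reads of the family.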

How the data were processed

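Values in each deposited table are counts: per the file headers, the authors gave for each distinct sequence its read number, strand, database entry and mismatches, with at most 2 allowed. Bowtie 0.12.7, mm9 and rn5 are named per the submitters' processing notes, with no role stated, and no adapter trimming is described there. Sequences of minus-strand matches were turned back. In the mouse, 2535 sequences have a blank count and an identifier turned into a date; they were left out, and 3 belong to the family. Only 53.3% of mouse and 68.6% of rat identifiers are listed, and reads under the others were not analysed here.

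Reads were assigned by name or by first 18 nt. Placement on RefSeq mouse hairpins was tested on simulated data. Ratios use reads per 1000000 mature miRNA reads, with 1 added to each. Named miRNAs were the family, the 5 nearest in ratio to miR-34c-5p, the markers, and comparison miRNAs with at least 100 reads in each library; miRNAs singled out from these comparisons were chosen after their values were seen. The members and lists were chosen with earlier results of these data known. Python 3.11.15, pandas 2.3.3 and scipy 1.17.1 were used. Alternatives covered assignment, scaling, pseudocounts, filters and blank counts.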

Additional observations from a re-analysis of the deposited data

How the results depend on the processing

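Of 158 values recomputed for 33 results, 115 moved by less than counting error, 42 moved by more and 1 reversed. Counting by deposited name alone gave 385 mouse and 6781 rat family reads, a miR-34c-5p log2 ratio of -4.36, rat 3p shares of 74.8% for miR-34b and 0.636% for miR-34c, and 0% for miR-34c-5p reads of 24 nt and miR-34b-3p reads of 23 nt in both species, because named reads were no longer than 23 and 22 nt for these arms. Rows without mismatches left 410 and 6639 family reads, 2.14% of rat miR-34c-5p reads at 24 nt, and 3.23% of mouse and 8.24% of rat miR-34b-3p reads at 23 nt. Scaling to listed reads gave log2 ratios of mouse over rat of -3.05 for miR-34b-5p, -1.54 for miR-34b-3p, -2.67 for miR-34c-5p and -1.05 for miR-449a-5p, and reversed miR-34c-3p to 0.44. Scaling to mature and precursor reads, chosen after seeing the data, gave -2.15 for miR-34b-3p, -3.27 for miR-34c-5p, -0.14 for miR-34c-3p and -1.66 for miR-449a-5p. Leaving the family out of the scaling gave -3.42 for miR-34b-3p and -4.55 for miR-34c-5p. Hairpin placement, also added later, gave 83.8% for the mouse miR-34b 3p share and 3.39% for rat miR-34c-5p reads of 24 nt.

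Keeping only sequences with at least 10 reads gave mouse 3p shares of 100% for miR-34b and 5.19% for miR-34c. Shifted starts then stood at 8.38% for rat miR-34b-5p and 0% for mouse miR-34b-3p and miR-34c-5p, additions at 0% for mouse miR-34c-5p and 7.81% for rat miR-449a-5p, and substitutions of miR-34c-5p at 0% (mouse) and 0.777% (rat). Weighting distinct sequences equally gave 9.68% for rat miR-34c-5p of 24 nt, 16.7% for rat miR-449a-5p of 20 nt, and additions of 33.3% and 32.4% for mouse and rat miR-34b-3p, 30.8% and 14.1% for miR-34c-5p, and 47.4% for rat miR-449a-5p. Blank mouse counts read back from their dates, an alternative added after seeing the data, brought the family to 487 mouse reads and miR-34b-3p to 101, and moved none of the 33 results beyond counting error. No paired analysis was possible because each species has 1 library. With 464 family reads, the mouse library limits what can be seen: miR-34b-5p rests on 7 reads there.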

Other observations

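Outside the arms that had reads by name, hairpin placement found 0 mouse reads and 3 rat reads. Of these, 1 each lay on the hairpins of Mir449a, Mir449b and Mir449c, whose arms without named reads were not marked out in that count. Loops and flanks of the Mir34b and Mir34c hairpins had 0 reads in both libraries. Where a family read was filed under a precursor, the mismatches given in the deposited annotation equalled those against the mouse hairpin in 34 of 34 mouse sequences and 32 of 34 rat sequences.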
